A study of Arabidopsis thaliana with 4 samples.

Results

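Arabinogalactan proteins were described here as the genes whose description in the authors' deposited table names arabinogalactan. There were 57 such lines among the 26822 gene lines used, and 45 of them reached a mean of at least 1 FPKM (fragments scaled for the length of the transcript and the size of the library). Lines whose description also names fasciclin were the fasciclin-like class, with 26 lines. The remaining lines were sorted by the usual naming of the family into 16 classical or lysine-rich members, 12 arabinogalactan peptides (AG peptides), 2 chimeric members and 1 other line.

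Arabinogalactan proteins are glycoproteins of the plasma membrane, cell wall and extracellular space of plants. Prolines of their backbone are hydroxylated and carry large branched chains of galactose and arabinose, and many members are held on the membrane by a glycosylphosphatidylinositol (GPI) anchor. Classical members have a long backbone rich in proline, AG peptides have a very short one, fasciclin-like members carry fasciclin domains, which are known from adhesion proteins, and chimeric members carry another protein domain. In roots the family is known for roles in cell expansion, root hairs and responses to salt.

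RNA came from root tips of Arabidopsis thaliana (ecotype Col-0), from seedlings 5 d old and grown at 22 °C in constant light, while the extraction text names roots. Wild type (WT) was compared with SCL28-OX, which overexpresses SCL28 (a gene for a GRAS-type transcription regulator), and there were 2 libraries per genotype. The overexpressing plants were of 1 line, labelled SCL28-OX #10, and the sources used here do not give the promoter of the transgene. Nothing in the labels tells whether the replicates were grown apart. Each p-value therefore sets the difference of the genotypes only against the spread between libraries of the same genotype. The test estimates that spread with help from the other lines, and the spread may be technical. SCL28 (AT1G63100) stood at 6.78 and 7.57 FPKM in WT and at 2378 and 2300 FPKM in SCL28-OX, and its log2 change was 8.16 ± 0.04 (SE; limma, adjusted p = 1.31e-10).

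The classes differ in how much of the coding sequence is given to proline, whose codons all start with CC. The sequences below were chosen because their genes carry the opposite directions of the uncorrected test described further on. For AGP24 the direction depended on the treatment of transcript length. The sequences are read 5′ to 3′ on the coding strand of the RefSeq genome TAIR10.1. Capitals mark the in-frame triplets that start with CC. AGP12 (chr3:4409087-4409269, plus strand), AGP15 (chr5:3784318-3784503, plus strand) and AGP24 (chr5:16301153-16301362, plus strand) are AG peptides and are shown whole, stop codon included. AGP3 (chr4:18581205-18581504, minus strand) and AGP9 (chr2:6399679-6399978, plus strand) are classical members, and FLA6 (chr2:8840663-8840962, plus strand) is a fasciclin-like member. Of these last 3 the first 300 bases of the coding sequence are shown, and each displayed stretch lies in 1 exon.
AGP12: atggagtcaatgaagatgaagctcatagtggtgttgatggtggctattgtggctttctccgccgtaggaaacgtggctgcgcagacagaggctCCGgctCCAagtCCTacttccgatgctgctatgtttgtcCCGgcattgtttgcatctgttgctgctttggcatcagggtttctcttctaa
AGP15: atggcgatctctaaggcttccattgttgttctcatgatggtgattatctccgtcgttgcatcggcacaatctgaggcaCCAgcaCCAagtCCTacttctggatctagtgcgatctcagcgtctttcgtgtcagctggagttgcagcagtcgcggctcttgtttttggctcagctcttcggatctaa
AGP24: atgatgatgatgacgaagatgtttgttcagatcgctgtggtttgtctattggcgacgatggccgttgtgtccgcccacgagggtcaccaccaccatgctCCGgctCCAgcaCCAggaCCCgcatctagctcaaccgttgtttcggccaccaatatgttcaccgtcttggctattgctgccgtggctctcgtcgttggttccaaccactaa
AGP3: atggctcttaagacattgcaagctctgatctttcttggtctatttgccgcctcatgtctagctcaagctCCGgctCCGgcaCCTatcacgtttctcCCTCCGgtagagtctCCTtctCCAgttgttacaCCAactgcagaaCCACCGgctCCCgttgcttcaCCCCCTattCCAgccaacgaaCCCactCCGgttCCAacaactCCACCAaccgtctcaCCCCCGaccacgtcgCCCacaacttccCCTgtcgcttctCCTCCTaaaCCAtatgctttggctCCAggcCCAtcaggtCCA
AGP9: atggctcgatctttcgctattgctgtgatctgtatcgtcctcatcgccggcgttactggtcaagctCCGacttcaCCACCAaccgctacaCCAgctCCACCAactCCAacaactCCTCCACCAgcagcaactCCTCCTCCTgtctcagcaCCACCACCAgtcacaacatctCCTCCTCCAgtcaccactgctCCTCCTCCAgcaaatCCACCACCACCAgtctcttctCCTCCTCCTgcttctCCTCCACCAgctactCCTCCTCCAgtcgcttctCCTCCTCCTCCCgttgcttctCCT
FLA6: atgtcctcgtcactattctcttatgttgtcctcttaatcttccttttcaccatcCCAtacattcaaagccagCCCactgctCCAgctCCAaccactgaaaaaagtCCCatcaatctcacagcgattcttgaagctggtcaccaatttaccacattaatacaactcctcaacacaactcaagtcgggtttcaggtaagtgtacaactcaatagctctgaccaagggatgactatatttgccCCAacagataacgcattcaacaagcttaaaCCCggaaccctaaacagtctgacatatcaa

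The displayed AG peptides hold 3 to 4 proline triplets each, spaced closely in the middle of the sequence except for the last one of AGP12. AGP9 holds 40 proline triplets among its first 100, AGP3 holds 29 and FLA6 holds 7. Over all lines of a class, proline made up 4.92% to 7.94% of the codons in the 12 AG peptides (median 6.61%) and 12.8% to 34.6% in the 16 classical members (median 21.0%). In the 26 fasciclin-like members the share was 3.97% to 10.7% (median 7.04%). In the longest coding models, AG peptides had 58 to 74 codons, classical members 116 to 278 and fasciclin-like members 176 to 489. The upper ends of the last 2 ranges are AGP18 and FLA15, whose coding models start outside their deposited lines. The classes also differ in transcript length, which bears on the comparison of the genotypes below.

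AG peptides held most of the family's FPKM in WT. Their summed level was 5073 and 5080 FPKM in the WT libraries and 3753 and 3813 FPKM in the SCL28-OX libraries. Classical members summed to 1315 and 1373 FPKM in WT and to 2174 and 2129 FPKM in SCL28-OX. Fasciclin-like members summed to 861 and 873 FPKM in WT and to 1261 and 1234 FPKM in SCL28-OX. The libraries of the genotypes did not overlap in any of these sums, and the AG peptides moved in the opposite direction to the other 2 classes. Neither these sums nor the shares that follow are corrected for transcript length. All tested lines in the length range of the AG peptides had a median log2 change of -0.39. AG peptides made up 66.6% and 65.9% of the family's FPKM in WT and 48.1% and 49.0% in SCL28-OX. The sum over all members was 7664 ± 63.8 FPKM in WT and 7793 ± 11.3 FPKM in SCL28-OX (SD, n = 2 libraries each), a ratio of 1.02. FPKM over all lines summed to 948524 ± 4109 in WT and 849021 ± 410 in SCL28-OX (SD, n = 2), so the family's share of all FPKM was 0.801% and 0.815% in WT and 0.919% and 0.917% in SCL28-OX. In RNA of a whole tissue, fewer cells of a type and less RNA per cell cannot be told apart.

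**Figure D1:**
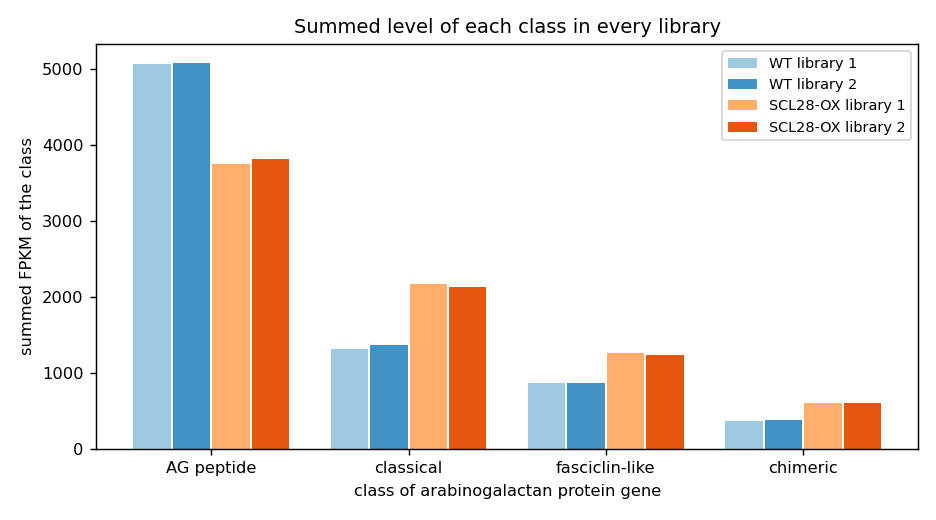
Summed FPKM of each class of arabinogalactan protein genes in the 2 WT and 2 SCL28-OX libraries, each bar being 1 library. The AG peptide sum is lower in both SCL28-OX libraries (3753 and 3813 FPKM against 5073 and 5080), and the classical, chimeric and fasciclin-like sums are higher.

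Each line was tested with limma on log2(FPKM + 1), a scale that understates the change of low genes. Among the 45 members tested, 31 rose and 11 fell in SCL28-OX at an adjusted p under 0.05, and 3 did not pass. Over all 18087 lines tested, 32.7% rose and 33.8% fell. The median log2 change was 0.37 over the members and -0.01 over all lines. The FPKM ranges of the genotypes were apart in 42 members, 31 higher and 11 lower, where 41.4% of all lines were apart and higher and 42.1% apart and lower. By the q-value of the authors' deposited table, 29 of the 45 were higher and 10 were lower at a q under 0.05, where the same table gave 31.3% and 29.9% over all lines tested.

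Transcript length moved with the change of expression over the whole table. Across 17710 lines with a known transcript length, Spearman's rho between log2 change and length was 0.68. Between libraries of the same genotype it was -0.04 in WT and 0.01 in SCL28-OX. These values are across genes, which are not independent replicates. Short transcripts therefore tended to lower values in SCL28-OX, and each class is set below beside all lines within its own range of transcript length. The changes are also given after a smooth trend with length, or with length and GC content, was subtracted from each library. That subtraction also removes any change of the genes themselves that follows length.

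**Figure D2:**
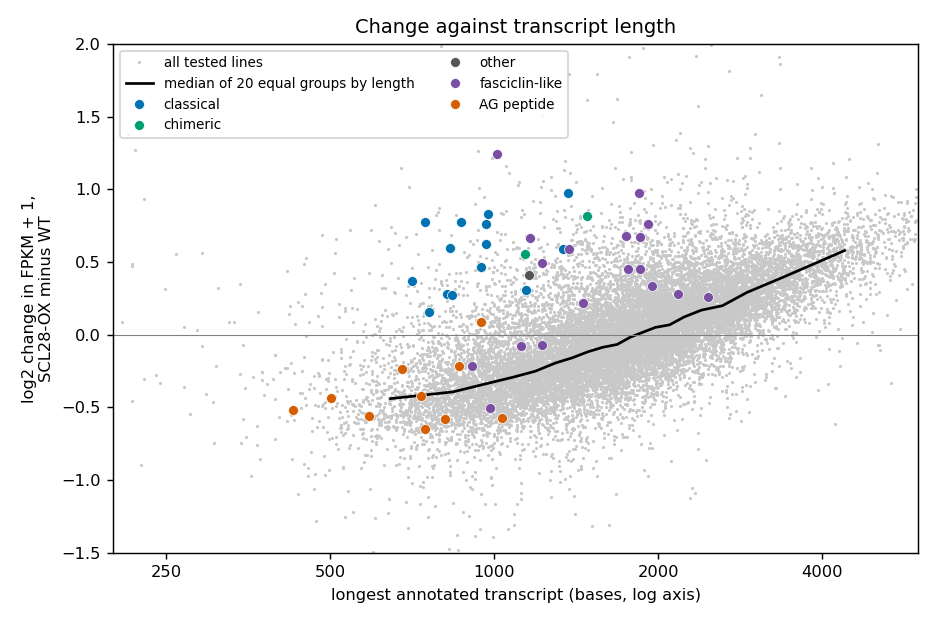
Log2 change on log2(FPKM + 1) of each member tested against its transcript length in bases, over the other lines of the table. Lines with short transcripts lie mostly below 0, the AG peptides lie among them, and the classical members lie above lines of similar length.

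Classical and lysine-rich members rose as a class. Of the 14 tested, 13 rose, 0 fell and 1, AGP5, did not pass, with log2 changes from 0.15 to 0.98 and a median of 0.59. Over the 4847 lines in the same range of transcript length (707 to 1362 bases), 8.29% rose and 67% fell, with a median of -0.29. After the length correction all 14 rose, with a median of 0.88, where 23.5% of all lines rose. In the 4264 lines that also shared the class's range of GC content, 8.84% rose and 65.7% fell. After the correction for length and GC all 14 rose, with a median of 0.78 and a range of 0.40 to 1.09, where 20.7% of all lines rose.

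AGP9 (AT2G14890, TAIR10 chromosome 2, 6399621 to 6401059) was the classical member with the highest mean and, without the corrections, the largest rise. Its level was 308 and 332 FPKM in WT and 630.0 and 631 FPKM in SCL28-OX. The SCL28-OX mean was 1.97 times the WT mean, and the log2 change was 0.98 ± 0.03 (SE; limma, adjusted p = 8.30e-07). After the correction for length it was 1.14, below AGP19, AGP4 and AGP3, and after that for length and GC it was 0.95, below AGP7, AGP4, AGP3, AGP25 and AGP10. This is the gene whose opening stretch above reads as an almost regular run of proline triplets. AGP2 (AT2G22470), the second by level, stood at 408 and 420 FPKM in WT and at 507 and 496 FPKM in SCL28-OX. It moved less than AGP9, with a change of 0.28 ± 0.02 in log2 (SE; limma, adjusted p = 2.58e-05).

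AGP4 (AT5G10430), known as JAGGER and needed in the pistil to keep further pollen tubes from an ovule, stood at 193 and 206 FPKM in WT and at 362 and 349.8 FPKM in SCL28-OX. Its log2 change was 0.83 ± 0.03 (SE; limma, adjusted p = 1.33e-06). AGP3 (AT4G40090) rose from 119.9 and 125 FPKM to 214 and 207 FPKM, a change of 0.78 ± 0.03 in log2 (SE; limma, adjusted p = 1.09e-06). In AGP9, AGP4 and AGP3 both SCL28-OX libraries lay far above the higher WT library. AGP19 (AT1G68725), a lysine-rich member known for a role in cell division and expansion, was near the low end, at 2.95 and 3.17 FPKM in WT and 6.38 and 5.55 FPKM in SCL28-OX. Its log2 change of 0.78 ± 0.09 (SE; limma, adjusted p = 1.37e-04) became 0.40 after the correction for length and GC. The transcript model of AGP19 holds coding sequence only (747 bases). Its GC content of 53.95% is the top of the class's range, where the median is 41.34%. In TAIR10.1, 66.6% of the 50-base words of the AGP19 transcript also lie in a locus on the opposite strand, and the sources used here do not give whether counting was by strand. The same share was 33.2% for AGP4, 45.0% for AGP26 and 29.4% for AGP10.

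AGP7, AGP25, AGP10, AGP18, AGP1 and AGP26 also rose, with log2 changes of 0.76, 0.62, 0.59, 0.59, 0.47 and 0.37. AGP18 is a lysine-rich member with a known role in the selection of the functional megaspore. The 3 lowest members tested were less certain. AGP17, a lysine-rich member known from the binding of Agrobacterium to roots, stood at 1.94 and 2.28 FPKM in WT and at 2.53 and 3.20 FPKM in SCL28-OX. Its log2 change of 0.31 (limma, adjusted p = 0.0447) was no longer called without WT replicate 1 or SCL28-OX replicate 2, where the adjusted p reached 0.228. AGP27 changed by 0.28 on the log2 scale and lost its call without WT replicate 1, WT replicate 2 or SCL28-OX replicate 1, with log2 changes of 0.19 to 0.38 over the 4 libraries left out in turn. AGP5, at 1.07 and 1.04 FPKM in WT and 1.58 and 1.03 FPKM in SCL28-OX, overlapped between the genotypes, and without SCL28-OX replicate 1 its log2 change was -0.02.

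**Figure D3:**
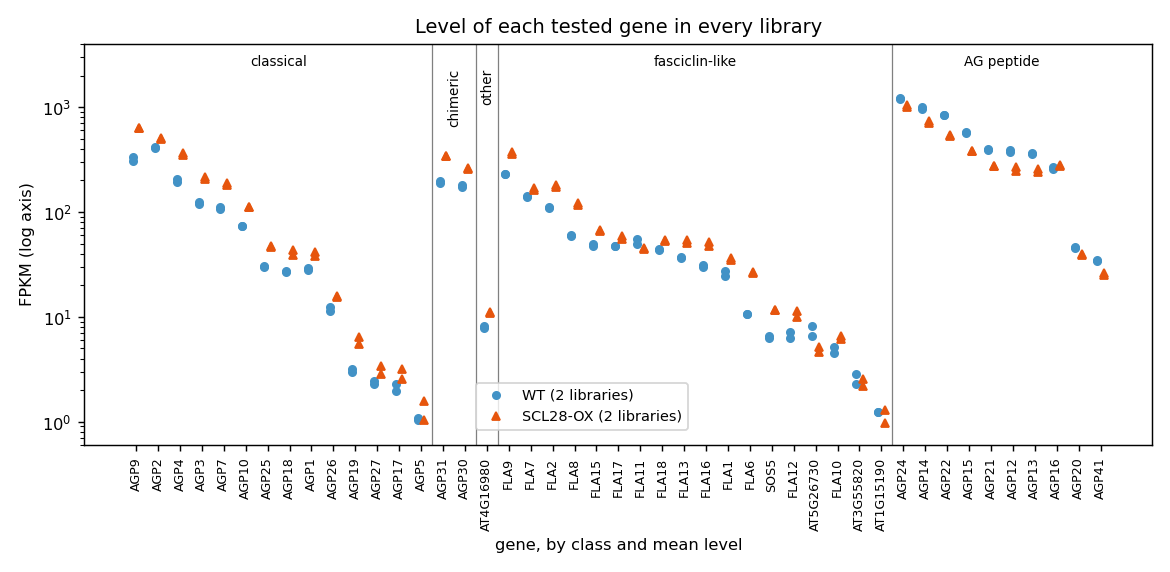
FPKM of each of the 45 members tested in every library, on a log axis, grouped by class, with WT and SCL28-OX libraries marked apart. AG peptides include the highest levels, up to 1222 FPKM for AGP24, and the classical and fasciclin-like members spread from about 1 FPKM to 631 FPKM.

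Both chimeric members rose. Of the 3057 lines in their range of transcript length 12.3% rose and 55.9% fell, and of the 767 that also shared their range of GC content 20.9% rose and 39.4% fell. AGP31 (AT1G28290), a cell wall protein known to bind pectin, stood at 189.7 and 196 FPKM in WT and at 339 and 341 FPKM in SCL28-OX. The log2 change was 0.82 ± 0.02 (SE; limma, adjusted p = 5.46e-07). AGP30 (AT2G33790), known from roots and from seed germination, stood at 173 and 179.6 FPKM in WT and at 263 and 256 FPKM in SCL28-OX. The log2 change was 0.56 ± 0.03 (SE; limma, adjusted p = 2.17e-06). Both were above WT in each SCL28-OX library, and both stayed called after the length correction (0.93 and 0.81) and after the correction for length and GC (0.61 and 0.76). The single other line, AT4G16980, described only as an arabinogalactan family protein, rose from 8.26 and 7.82 FPKM to 10.96 and 11.1 FPKM, a change of 0.41 ± 0.06 in log2 (SE; limma, adjusted p = 4.39e-04). Of its 50-base words 63.5% lie in a locus on the opposite strand.

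Fasciclin-like members mostly rose. Of the 18 tested, 14 rose, 2 fell and 2 did not pass, with a median log2 change of 0.45 and a range of -0.51 to 1.24. Over the 12281 lines in the same range of transcript length (908 to 2470 bases), 23% rose and 37.8% fell, and with the GC range also shared (11332 lines) 23% rose and 36.9% fell. After the length correction 13 rose and 0 fell, with a median of 0.45, where 23.5% of all lines rose and 22.5% fell. After the correction for length and GC 11 rose and 0 fell, with a median of 0.39, where 20.7% of all lines rose and 20.9% fell. The members that lost their call with GC were FLA17, FLA18 and FLA10.

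FLA6 (AT2G20520, TAIR10 chromosome 2, 8840663 to 8841461) had the largest rise of the 45 members. It stood at 10.61 and 10.6 FPKM in WT and at 26.1 and 26.8 FPKM in SCL28-OX. The SCL28-OX mean was 2.49 times the WT mean, and the log2 change was 1.24 ± 0.04 (SE; limma, adjusted p = 9.07e-07). The libraries of each genotype lay close together, and the value was larger after the corrections, at 1.55 and 1.57. FLA8 (AT2G45470), also named AGP8, stood at 58.6 and 60.9 FPKM in WT and at 121 and 116 FPKM in SCL28-OX, a change of 0.97 ± 0.03 in log2 (SE; limma, adjusted p = 8.30e-07).

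SOS5 (AT3G46550), also named FLA4, is needed for normal cell expansion in roots under salt. It stood at 6.60 and 6.23 FPKM in WT and at 11.56 and 11.52 FPKM in SCL28-OX. The log2 change was 0.76 ± 0.06 (SE; limma, adjusted p = 2.13e-05). FLA16 (AT2G35860), known from the secondary walls of stems, rose from 30.9 and 29.6 FPKM to 51.1 and 47.1 FPKM, a change of 0.68 ± 0.05 in log2 (SE; limma, adjusted p = 1.11e-05). Of the 50-base words of the FLA16 transcript 76.0% lie in a locus on the opposite strand.

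The most abundant fasciclin-like members were FLA9 and FLA7. FLA9 (AT1G03870) stood at 230.0 and 230.0 FPKM in WT and at 371 and 359 FPKM in SCL28-OX, a change of 0.66 ± 0.02 in log2 (SE; limma, adjusted p = 8.30e-07). FLA7 (AT2G04780) stood at 142 and 140.1 FPKM in WT and at 160.2 and 168 FPKM in SCL28-OX, a change of 0.22 ± 0.03 in log2 (SE; limma, adjusted p = 3.80e-04). The ranges of both genes were apart between the genotypes, and FLA9 moved the more. FLA2, FLA12, FLA13, FLA15, FLA1, FLA10, FLA18 and FLA17 rose by 0.26 to 0.67 on the log2 scale. FLA1 is known from lateral root development and from shoot regeneration in culture, and FLA12 from secondary walls. FLA10 lost its call without WT replicate 2, with an adjusted p of 0.0526 (limma).

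The 2 fasciclin-like members that fell were FLA11 and AT5G26730. FLA11 (AT5G03170), known with FLA12 from secondary walls of stems, stood at 49.98 and 54.7 FPKM in WT and at 44.3 and 45.6 FPKM in SCL28-OX. Its log2 change was -0.21 ± 0.05 (SE; limma, adjusted p = 0.00413), against a log2 change of 0.59 for FLA12. After the length correction the FLA11 value was 0.14 and not called (limma, adjusted p = 0.0509), and its deposited interval overlaps that of a neighbouring line. AT5G26730 stood at 6.56 and 8.14 FPKM in WT and at 4.63 and 5.10 FPKM in SCL28-OX, with a change of -0.51 ± 0.10 in log2 (SE; limma, adjusted p = 0.00287). Its WT libraries differed more from each other than its SCL28-OX libraries did, and after the length correction its value was -0.18 and not called. AT3G55820 (log2 change -0.08; limma, adjusted p = 0.560) and AT1G15190 (-0.07; limma, adjusted p = 0.631) overlapped between the genotypes.

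**Figure D4:**
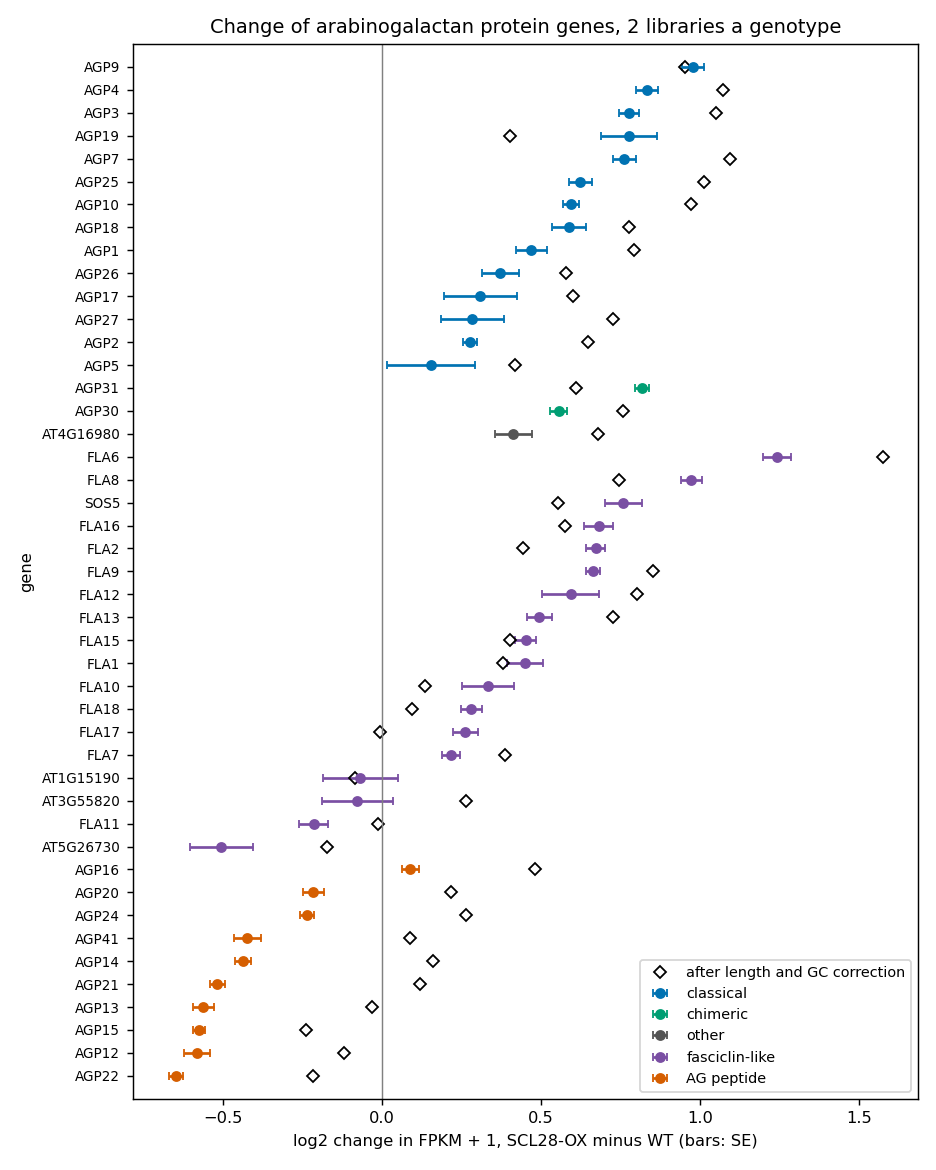
Log2 change of each member tested on log2(FPKM + 1), with its standard error from limma, grouped by class, beside the value after the correction for length and GC. Classical members lie above 0 with and without the correction, while the AG peptides lie below 0 except AGP16 and move to both sides of 0 after it.

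AG peptides were the class that fell in the uncorrected test. Of the 10 tested, 9 fell and 1, AGP16, rose, with a median log2 change of -0.48. The 2655 lines in their range of transcript length (427 to 1034 bases) fell too, with 73.1% called lower, 6.1% called higher and a median of -0.39. In the 1265 lines that also shared their range of GC content, 76.8% were called lower and 4.11% higher, with a median of -0.42. The share of AG peptides that fell was therefore near that of all short transcripts. After the length correction 3 fell, 3 rose and 4 did not pass, with a median of 0.00. Of all lines 22.5% fell and 23.5% rose in that fit. After the correction for length and GC 3 fell, 5 rose and 2 did not pass, with a median of 0.10. Of all lines 20.9% fell and 20.7% rose in that fit.

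The 3 AG peptides that fell in each of these fits were AGP22, AGP15 and AGP12. AGP22 (AT5G53250) stood at 832 and 847 FPKM in WT and at 544 and 527 FPKM in SCL28-OX. Its log2 change was -0.65 ± 0.02 (SE; limma, adjusted p = 8.30e-07), and -0.24 and -0.22 after the corrections for length and for length and GC. AGP15 (AT5G11740) stood at 566 and 574 FPKM in WT and at 379 and 385 FPKM in SCL28-OX. Its log2 change was -0.58 ± 0.02 (SE; limma, adjusted p = 8.30e-07), and -0.28 and -0.24 after the corrections. AGP12 (AT3G13520) stood at 394 and 374 FPKM in WT and at 246 and 266 FPKM in SCL28-OX, a change of -0.58 ± 0.04 in log2 (SE; limma, adjusted p = 1.17e-05), and -0.20 and -0.12 after the corrections. In each of the 3 both SCL28-OX libraries lay below both WT libraries, and the change was smaller after each correction.

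AGP13 (AT4G26320) stood at 369 and 361 FPKM in WT and at 256 and 238 FPKM in SCL28-OX, with a change of -0.56 ± 0.03 in log2 (SE; limma, adjusted p = 5.77e-06). After the corrections it stood at -0.09 and -0.03 and was not called. AGP24 (AT5G40730, TAIR10 chromosome 5, 16301075 to 16301520) was the most abundant member of the family, at 1222 and 1195 FPKM in WT and 1009 and 1043 FPKM in SCL28-OX. Its log2 change was -0.24 ± 0.02 (SE; limma, adjusted p = 5.02e-05), and it turned to 0.03 under quantile normalization and to 0.20 and 0.26 after the corrections, where it was called higher. AGP14 (AT5G56540), known from root hair elongation, was the second by level, at 954 and 992 FPKM in WT and 705 and 731 FPKM in SCL28-OX. Its log2 change of -0.44 ± 0.03 (SE; limma, adjusted p = 5.44e-06) turned to 0.06 and 0.16 after the corrections. For AGP24 and AGP14 the direction thus depended on the treatment of length.

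AGP21, known from the choice of root hair cell fate, stood at 388 and 399.8 FPKM in WT and at 274 and 276 FPKM in SCL28-OX. Its log2 change was -0.52 ± 0.02 (SE; limma, adjusted p = 1.53e-06), and 0.00 and 0.12 after the corrections. Of the 50-base words of the AGP21 transcript 83.3% lie in a locus on the opposite strand, and of those of AGP16 20%. AGP41 changed by -0.42 on the log2 scale and was not called after the corrections, at -0.01 and 0.09. AGP20 changed by -0.22 and turned to 0.15 and 0.22 after the corrections. AGP16 (AT2G46330) stood at 269 and 257 FPKM in WT and at 277 and 282 FPKM in SCL28-OX. Its log2 change of 0.09 ± 0.03 (SE; limma, adjusted p = 0.0197) lost its call without WT replicate 2 or SCL28-OX replicate 2, with an adjusted p of up to 0.110, and was 0.42 and 0.48 after the corrections.

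Across the 45 members tested, Spearman's rho between the percentage of proline codons and the log2 change was 0.54, 0.64 after the length correction and 0.58 after the correction for length and GC. These are descriptions across genes that share the same 4 libraries, and classes differ in both measures. Within the 14 classical members rho was 0.71, 0.69 after the length correction and 0.28 after the correction for length and GC. Within the 18 fasciclin-like members rho was 0.18, 0.16 and 0.13 in the same order. Within the 10 AG peptides it had the opposite sign, at -0.41, -0.21 and -0.21.

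The other 12 members stayed under 1 FPKM and were not tested. AGP23, FLA3 and FLA14 were listed at 0 in all 4 libraries. AGP6 and AGP11, which are known from pollen, had a mean of at most 0.438 FPKM in either genotype. AGP40, FLA5, FLA20, FLA21, AT4G12950 and AT1G30800 were also low, and the highest of the 12, AT5G16920, had a mean of 0.735 FPKM over the 4 libraries. Just above the limit were AGP5 at 1.18 FPKM and AT1G15190 at 1.19 FPKM.

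Other genes of the pathway went in both directions. The list held 25 genes that build, trim or anchor the sugar chains or the proteins and 2 receptor kinases of the genetic pathway of SOS5, FEI1 and FEI2. Of these 27 genes, all of them tested, 6 rose (the 2 kinases among them), 5 fell and 16 did not pass, with a median log2 change of 0.04, where 32.7% of all lines rose and 33.8% fell. After the length correction 3 rose and 5 fell, where 23.5% of all lines rose and 22.5% fell. After the correction for length and GC 3 rose and 4 fell, where 20.7% of all lines rose and 20.9% fell. GUS2, a glucuronidase that acts on arabinogalactan, rose from 12.59 and 12.55 FPKM to 17.8 and 18.5 FPKM (log2 change 0.50; limma, adjusted p = 5.78e-05). AGM1 and AGM2, which methylate glucuronic acid on the chains, went opposite ways. AGM2 rose from 72.7 and 71.9 FPKM to 102 and 95.8 FPKM, a log2 change of 0.44 (limma, adjusted p = 2.02e-05). AGM1 fell from 48.8 and 48.2 FPKM to 41.2 and 40.4 FPKM, a log2 change of -0.24 (limma, adjusted p = 3.14e-04). FEI2 rose by 0.35 on the log2 scale (limma, adjusted p = 5.23e-04), and FEI1 by 0.23. GUS2, AGM2 and AGM1 kept their calls and directions after the correction for length and after that for length and GC. Neither kinase was called after these 2 corrections.

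Of the fucosyltransferases of arabinogalactan, FUT6 changed by -0.22 (limma, adjusted p = 0.00181) and FUT4 by -0.18 (limma, adjusted p = 0.00552) on the log2 scale. GLCAT14A, a glucuronosyltransferase, and HPGT1, a hydroxyproline galactosyltransferase, also fell, and RAY1 and GALT3 also rose; these 4 and FEI1 were named after their values were seen. HPGT1, RAY1 and GALT3 were not called after the length correction, with values of -0.08, 0.11 and 0.11, nor after the correction for length and GC. FUT4 was not called after the correction for length and GC, at -0.08. None of the 4 genes of GPI anchor assembly passed the uncorrected test, and 1 of them, SETH1, was called higher after the length correction (0.43; limma, adjusted p = 0.00854) and after the correction for length and GC (0.33; limma, adjusted p = 0.0268). The count of the 27 that fell in the uncorrected test was 3 without WT replicate 2.

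Markers of cell types moved between the genotypes in the same libraries. The shares of all lines to read these counts against are 32.7% higher and 33.8% lower in the uncorrected test. They are 23.5% higher and 22.5% lower after the length correction. After the correction for length and GC they are 20.7% higher and 20.9% lower. All 5 root hair markers passed, 4 higher and 1 lower (EXPA18, which was not called after the corrections, at 0.05 and 0.00), and their summed level was 304 to 309.8 FPKM in WT and 484 to 489.8 FPKM in SCL28-OX. LRX1 rose by 1.81 and PRP3 by 1.51 on the log2 scale. Of 5 xylem secondary wall markers 3 rose and 1 fell, with sums of 212 to 213 FPKM in WT and 224.8 to 224.9 FPKM in SCL28-OX, and CESA7 rose by 0.82. After the length correction 2 of the 5 rose and 0 fell, with CESA7 at 0.43, and after the correction for length and GC 2 rose and 0 fell, with CESA7 at 0.25. Of 4 markers of shoot photosynthesis 3 rose and 1 was under 1 FPKM, with sums of 61.3 to 61.6 FPKM in WT and 104 to 105 FPKM in SCL28-OX, and RBCS1A rose by 0.99. The same 3 were called higher after the corrections. None of the 4 root tip meristem markers rose and 2 fell, RGF1 and PLT1, with sums of 17.2 to 17.4 FPKM in WT and 13.7 to 13.9 FPKM in SCL28-OX. After the corrections PLT1 alone of the 4 was called lower, and RGF1 went from -0.68 to -0.20 and -0.11. All 4 of these meristem markers reached the 1 FPKM limit as a mean over the libraries. The 4 pollen markers, which include AGP6 and AGP11, summed to at most 0.90 FPKM in any library, and VGD1 was listed at 0 in all. The part of these cell types in the changes of the arabinogalactan protein genes was not tested.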

How the data were processed

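Total RNA was turned into stranded libraries (TruSeq Stranded mRNA), per the labels' protocols. The submitters' processing notes name the TAIR10 genome and the tools Cuffdiff 2.2.0, TopHat2 2.0.13 and CASAVA 1.8.2. Per the file headers, the authors deposited one table of FPKM for each gene in each library. Their deposited comparison table adds group means, a test score, a p-value and a q-value. Of 26883 deposited lines, 60 had columns shifted by a space and were left out, and 1 is not analysed here. The deposited group means equalled the averages of the libraries to within 0.1% in all 26822 lines used, of which 4371 were listed at 0 throughout. Since 3043 lines share their interval with another line and 287 join several loci, reads of genes that overlap could be counted for either.

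Lines with a mean of at least 1 FPKM (18087) were put through limma 3.58.1 (R 4.3.3) on log2(FPKM + 1) (eBayes with trend, two-sided, Benjamini-Hochberg over all lines, threshold 0.05, no covariates). No read counts were used. Transcript length and GC content came from the longest matching transcript models of RefSeq TAIR10.1, which can be longer than the deposited line. The corrections for length, and for length and GC, subtracted a loess curve (span 0.3) of each library's deviation from the mean of all libraries. Proline codons and 50-base words shared with other loci were read from the same genome.

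The steps of low FPKM values implied depths of about 33000000 and 27700000 fragments in WT and 28200000 and 26000000 in SCL28-OX, provided that the FPKM were scaled to mapped fragments per library. In these steps 93.4% to 94.6% of the values of 1 to 15 fragments were whole within 0.1, in single-transcript genes only. At that depth a transcript of 739 bases at 1 FPKM had 14.9 to 19.0 fragments. That length is the median of the longest transcript models of the 10 AG peptides tested. The parts of these models within the deposited lines had 371 to 591 bases, which gives fewer fragments at 1 FPKM. The median absolute log2 difference was 0.25 between genotypes, 0.05 between the WT libraries and 0.05 between the SCL28-OX libraries.

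The members, the list of 27 other pathway genes, the markers and the tests were chosen with earlier results of these data known. Per class, values in full were given for up to 4 of the largest rises and 4 of the largest falls past the threshold and the 2 members of highest mean. AGP21, the next largest fall of the AG peptides, was given in full outside this rule. From the pathway list up to 3 rises and 3 falls were given, and up to 2 genes per marker list. SCL28 was always given. Same-numbered libraries deviated together with a correlation of 0.12 in the single pair this design allows, and no label ties the numbers to a shared batch, so the numbers were not taken as pairs.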

Additional observations from a re-analysis of the deposited data

How the results depend on the processing

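The correction for length, that for length and GC, and a length correction within the deposited interval, which was chosen after seeing the data, moved these counts: members that fell, from 11 to 3, 3 and 3; AG peptides that fell, from 9 to 3, 3 and 3; fasciclin-like members that fell, from 2 to 0, 0 and 0; other genes of the pathway that rose, from 6 to 3, 3 and 3. Over all lines the share that fell went from 33.8% to 22.5%, 20.9% and 22.4% in the same order. The share that rose went from 32.7% to 23.5%, 20.7% and 23%. The interval correction gave 8 of the other genes of the pathway falling, against 5. Among the 8 was 1 of the 2 FEI kinases, at -0.11, though both rose in the uncorrected test. Without lines that share an interval 1 fasciclin-like member fell, since the FLA11 line is then left out.

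Among the members tested, changes that reversed under the 3 corrections, in that order where given, were AGP24 (0.20, 0.26, 0.24), AGP14 (0.064, 0.16, 0.017), AGP20 (0.15, 0.22, 0.20) and AT3G55820 (0.19, 0.26, 0.13). AGP21 reversed with length (0.0039) and with length and GC (0.12), AT1G15190 with length (0.15) and within the interval (0.12), and FLA11 with length (0.135) and within the interval (0.074). With length and GC, AGP41 (0.087) and FLA17 (-0.0050) reversed. AGP24 was 0.034 under quantile normalization. Other genes of the pathway and the markers are not in this list. Some of them reversed too, such as FEI1 with length (-0.06) and CESA4 with length and GC (-0.02). The cause was not tested.

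With each library left out in turn, 28 to 30 members rose and 11 fell each time, 11 to 12 classical members rose, 9 AG peptides fell each time, 13 to 14 fasciclin-like members rose and 2 fell each time, and 6 of the other pathway genes rose each time and 3 to 5 fell. Over these fits AGP5 ranged from -0.022 (without SCL28-OX replicate 1) to 0.33, AT3G55820 from -0.19 to 0.031 (without WT replicate 2; 0.00456 without SCL28-OX replicate 2), and AT1G15190 from -0.18 to 0.043 (without SCL28-OX replicate 2). With the replicate number as a block, 31 members rose and 11 fell, as without it, and it changed no other call. Other pseudocounts, filters and scalings kept the counts within 1.5 times. Depth limits most the 5 tested members with a mean under 3 FPKM: AGP5, AT1G15190, AT3G55820, AGP17 and AGP27.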
